A study of Mus musculus with 9 samples.

Results

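Transcripts of 10 genes of the fibroblast growth factor (FGF) system were followed in mouse cardiac endothelial cells of the established line MCEC: the ligands Fgf1, Fgf2, Fgf7 and Fgf10, the receptors Fgfr1, Fgfr2, Fgfr3 and Fgfrl1, and the binding proteins Fgfbp1 and Fgfbp3. They were found by symbol among the 55487 genes of a poly-A RNA-seq count table, and all 10 were present. The 9 libraries comprised 3 of unmodified cells (WT), 3 of cells with a knockdown of Zbtb46 (KD) and 3 of cells overexpressing it (OE). Zbtb46 encodes a BTB zinc finger transcription factor. The labels give neither the means of knockdown or overexpression nor whether the modified cells were clones or pools, and no library from cells with a control vector was analysed here. They number the libraries of a group without saying whether these came from separate cultures, so the tests measure the spread between libraries, which may be technical. The 10 genes were chosen by their place in the FGF system and with their differences between these groups known, Fgfbp3 being among the genes with the largest differences in OE. Their levels and differences are therefore a description, and no p-value is given for them.

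FGF ligands are secreted or released proteins that bind receptor tyrosine kinases together with heparan sulfate, a sulfated sugar chain of the cell surface and matrix. The bound receptor recruits adaptors such as FRS2 and switches on the RAS and MAP kinase cascade, whose targets include inhibitors that dampen the same cascade. In endothelium FGF signalling is known for its part in proliferation, vessel growth and junction maintenance, and FGFR1 is regarded as a main endothelial receptor. FGF binding proteins are secreted carriers that free FGFs from heparan sulfate, and FGFRL1 is a receptor that lacks the intracellular kinase domain.

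Total counts ran from 39491828 to 55745849 per library, and levels are given as CPM, counts scaled to a common library size with TMM factors. Zbtb46 itself stood at 13.7 ± 0.623 CPM in WT (SD, n = 3). It was 11.2 ± 0.537 CPM in KD, a log2 fold change of only -0.28 (adjusted p = 0.00144), and 191 ± 2.67 CPM in OE (3.81, adjusted p = 3.22e-21), by edgeR's quasi-likelihood test. Of 14 endothelial markers, 10 exceeded 3 counts in some library, but only 6 had enough counts for a test. Erg had 0 counts throughout, and Pecam1, Cdh5, Tie1, Emcn, Vwf, Cldn5 and Icam2 had at most 10 counts in any library. Eng at 125 ± 6.78 CPM and Flt1 at 17.2 ± 0.196 CPM in WT were the most abundant. The summed endothelial markers, mostly Eng, lay at 147 to 159.6 CPM in WT, 124 to 131 in KD and 107 to 118 in OE. Of the 6 with enough counts for a test, 4 passed as lower in KD and 0 as higher, by edgeR's quasi-likelihood test. In OE 4 passed as lower and 1 as higher. The latter was Flt1, at 21.9 ± 1.58 CPM in OE (log2 fold change 0.35, adjusted p = 0.00151, same test). Of 8 fibroblast markers, 7 exceeded 3 counts, and their sum lay at 5141 to 5716 CPM in WT, 4888 to 4951 in KD and 4061 to 4154 in OE, nearly all of it Col1a1. In OE all 6 fibroblast markers with enough counts for a test were lower than in WT. The summed markers of smooth muscle lay at 9.7 to 11.5 CPM in WT, 4.62 to 5.12 in KD and 3.54 to 4.47 in OE, those of epithelium at 22.4 to 24.2, 21.9 to 22.6 and 16.7 to 18.3 CPM, those of leukocytes between 3.18 and 5.75 CPM in all groups and those of cardiomyocytes at no more than 1.62 CPM, with Myh6 at 0. In bulk RNA fewer cells of a type and less RNA per cell cannot be told apart, and the part of these shifts in the results on FGF genes was not tested.

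The 2 binding proteins differed in the size of their response, and the sequences before their start sites are shown to let a reader set one beside the other. Each runs from 250 to 17 bases before the RefSeq start (GRCm38.p6, minus strand, written 5′ to 3′ along the gene), a stretch of 234 bases free of annotated exons. Fgfbp3 lies at chr19:36919616-36919849 and Fgfbp1 at chr5:43981816-43982049. Capitals mark matches, on either strand, to TATAAA or CCAAT.
Fgfbp3: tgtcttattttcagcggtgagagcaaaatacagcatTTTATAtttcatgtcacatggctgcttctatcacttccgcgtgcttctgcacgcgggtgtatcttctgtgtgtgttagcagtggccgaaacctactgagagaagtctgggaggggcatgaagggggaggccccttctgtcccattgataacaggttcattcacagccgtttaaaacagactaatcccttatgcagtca
Fgfbp1: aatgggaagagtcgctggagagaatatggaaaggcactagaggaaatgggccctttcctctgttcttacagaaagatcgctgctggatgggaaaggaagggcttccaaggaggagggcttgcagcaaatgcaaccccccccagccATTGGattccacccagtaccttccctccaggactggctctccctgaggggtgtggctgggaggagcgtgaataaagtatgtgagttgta

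Across the 32851 promoters of the RefSeq table, TATAAA occurred in 11.9% and CCAAT in 32.5% of windows of this length. Fgfbp3 had the first and Fgfbp1 the second, each on the opposite strand (TTTATA and ATTGG as printed). The match of Fgfbp3 lies toward the end of the stretch that is far from the start site. What either match does was not tested. GGGCGG, present in 30.4% of windows, TGACGT, in 5.84%, and CACGTG, in 5.45%, were searched on both strands as well and matched neither. These letters overlap no other motif of the search. Fgfbp3 held 7 CpG dinucleotides and Fgfbp1 held 3, where the median promoter held 5.

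Fgfbp3 (ENSMUSG00000047632, chromosome 19, 36917550 to 36919615, minus strand, GRCm38) was the member with the largest difference. Its level was 1.56, 1.36 and 1.86 CPM in the WT libraries, 1.25, 1.43 and 1.0 CPM in KD and 36.3, 36.4 and 35.1 CPM in OE. The OE libraries stood far above all others and close together, while WT and KD overlapped. The OE mean was 22.7-fold that of WT, which is 4.51 on the log2 scale (SE 0.127), and 29.4-fold that of KD. Between KD and WT the log2 fold change was -0.37 (SE 0.192). The 117 other tested genes in its 20 Mb window centred on 0.07 (median, log2 scale) in OE against WT. The nearest tested genes, 2 on each side, did not all lie near that median. Btaf1 rose in OE from 82.5 ± 9.10 to 129 ± 2.71 CPM (0.64, adjusted p = 3.65e-08) and in KD to 102 ± 0.974 CPM (0.31, adjusted p = 6.32e-04), and Tnks2 rose in OE (0.24, adjusted p = 4.05e-04), by edgeR's quasi-likelihood test. Ppp1r3c, at 0.157 ± 0.0711 CPM in WT, had log2 fold changes of -1.05 in KD (adjusted p = 0.412) and 1.08 in OE (adjusted p = 0.229), and Cpeb3 of -0.12 and 0.01.

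Fgfbp1 (ENSMUSG00000048373, chromosome 5, 43978858 to 43981779, minus strand), the other carrier, was scarce. It had 17, 25 and 18 counts in WT, 18, 24 and 21 in KD and 41, 26 and 51 in OE. The corresponding levels averaged 0.424 ± 0.0229 CPM in WT (SD, n = 3), against 0.464 ± 0.126 in KD and 0.844 ± 0.305 in OE. All OE libraries were above all WT libraries, but the lowest OE library, at 0.525 CPM, lay below the highest KD library, at 0.603 CPM. OE exceeded WT by 0.99 on the log2 scale (SE 0.311). It passed the threshold of the fit and did so again in only 7 of 18 alternative analyses, failing for example without OE replicate 3 (0.71), without OE replicate 1 (0.96) and without each WT replicate (0.95 to 1.03). The window centred on 0.01 in KD and -0.03 in OE against WT (median, log2 scale). Gm42427, among the nearest tested genes, had at most 3 counts in WT, 537 to 761 in KD and 556 to 864 in OE. It rose in both (8.86, adjusted p = 6.24e-10, and 8.89, adjusted p = 1.30e-10, edgeR's quasi-likelihood test). Fgfbp1 had a log2 fold change of 0.12 in KD (SE 0.206). Of the other neighbours only Tapt1 passed against WT, in OE (0.20, adjusted p = 0.0197). Their bearing on Fgfbp1 was not tested.

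**Figure D1:**
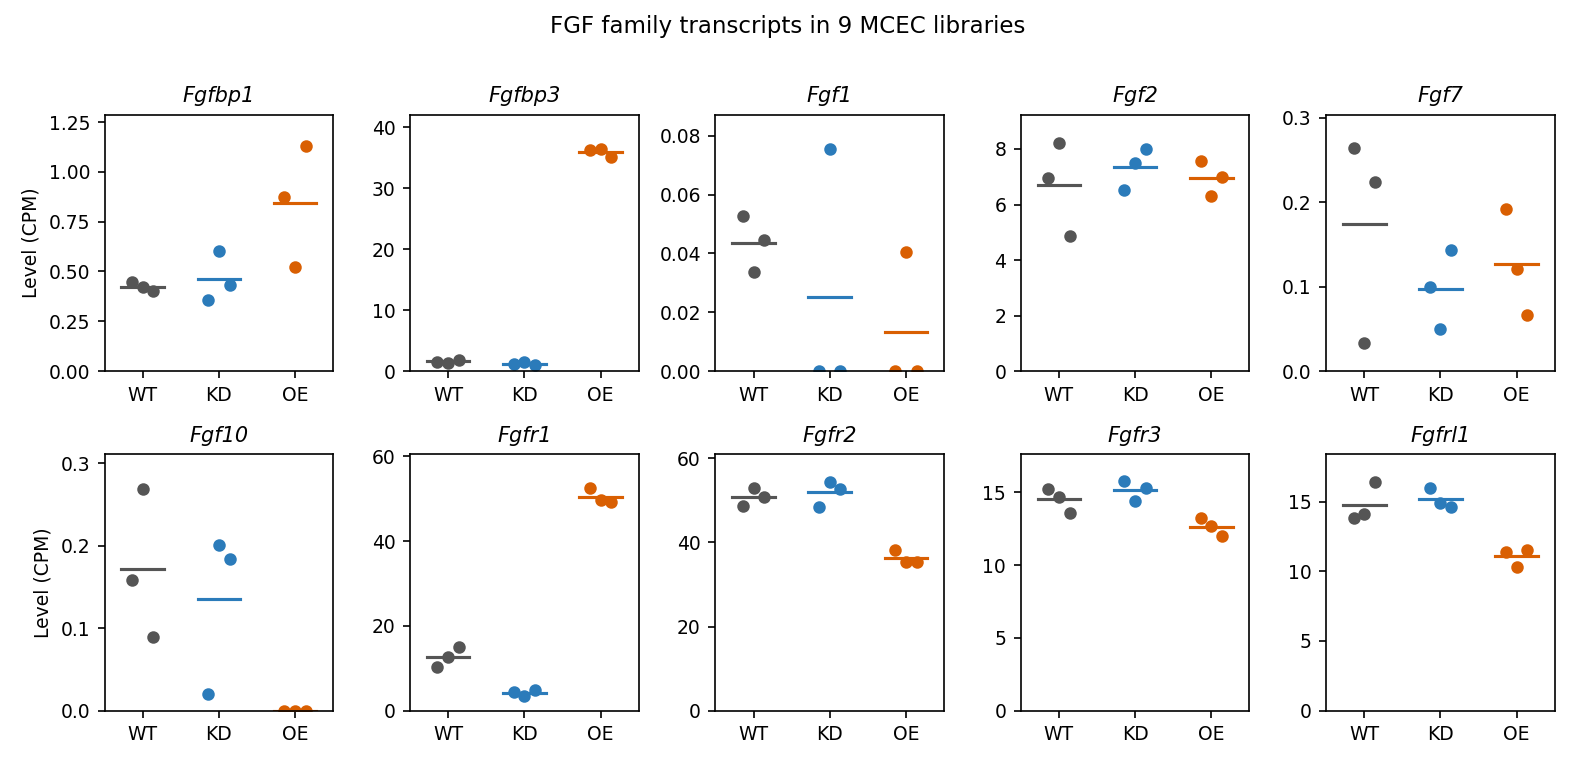
Levels of the 10 genes in CPM (vertical axes, each starting at 0) by group; points are single libraries in the order of their replicate number and horizontal lines are group means of 3. Fgfbp3 and Fgfr1 are far higher in OE, Fgfr1 is lowest in KD, and Fgf1, Fgf7 and Fgf10 stay below 0.3 CPM.

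Among the receptors, Fgfr1 (ENSMUSG00000031565, chromosome 8, 25513654 to 25575718, plus strand) differed in both modified lines and in opposite directions. It stood at 10.2, 12.6 and 15.0 CPM in the WT libraries, 4.43, 3.52 and 4.81 CPM in KD and 52.5, 49.6 and 49.3 CPM in OE. The 3 groups did not overlap in any pair. KD was 2.95-fold below WT, a log2 fold change of -1.56 (SE 0.208), and OE was 3.99-fold above it, a log2 fold change of 2.0 (SE 0.162). OE exceeded KD 11.8-fold. The WT libraries enter both comparisons, and WT varied most, with an SD of 2.39 CPM against 0.667 in KD and 1.77 in OE. Over 18 alternative analyses the KD difference ran from -1.68 to -1.43 and the OE difference from 1.87 to 2.13 on the log2 scale. The antisense gene Gm16159, which shares 164 of the 9875 exon bases of Fgfr1, had at most 2 counts in any library. The window around Fgfr1 centred on 0.01 (median, log2 scale) in each comparison with WT, over 103 other genes. Of the 2 nearest tested genes on each side, 5430421F17Rik rose in OE from 0.0762 ± 0.0377 to 0.550 ± 0.198 CPM (2.88, adjusted p = 0.00177, edgeR's quasi-likelihood test) and was at 0.0471 ± 0.0505 CPM in KD (-0.68, adjusted p = 0.681). Nsd3 rose in both (0.17 and 0.14), and Gm10689 and Letm2 did not pass the threshold in either.

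Fgfr2 (ENSMUSG00000030849) was the most abundant kinase receptor in WT, at 48.7, 52.9 and 50.7 CPM. KD libraries held 48.5, 54.4 and 52.8 CPM and overlapped WT, and OE libraries held 38.1, 35.4 and 35.3 CPM, below all others. The log2 fold change was 0.03 (SE 0.0600) in KD and -0.49 (SE 0.0495) in OE against WT. In the annotation, 1 Fgfr2 transcript extends the gene on chromosome 7 from 130162451 to 133123350 and shares 314 of its 10328 exon bases with Ctbp2, a gene for a transcriptional corepressor. How the authors assigned reads in these bases is not given in the sources used here. Ctbp2 was at 37.8 ± 2.55 CPM in WT, 40.6 ± 0.574 in KD and 34.4 ± 2.72 in OE, with a log2 fold change of -0.13 in OE against WT (adjusted p = 0.117, edgeR's quasi-likelihood test).

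Fgfr3 (ENSMUSG00000054252, chromosome 5, 33721674 to 33737068, plus strand) differed little. Its levels were 15.2, 14.7 and 13.6 CPM in WT, 15.8, 14.4 and 15.3 in KD and 13.2, 12.7 and 12.0 in OE. Every OE library was below every WT and KD library, by -0.20 on the log2 scale against WT (SE 0.0610), which missed the threshold, and by -0.27 against KD (SE 0.0555), which passed. Without KD replicate 1 the latter was -0.24 and missed it. Fgfr3 shares 998 of its 7158 exon bases with G630022F23Rik on the opposite strand, which had at most 4 counts in any library.

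Fgfrl1 (ENSMUSG00000008090, chromosome 5, 108692382 to 108706924, plus strand), the receptor without a kinase domain, stood at 13.8, 14.1 and 16.4 CPM in WT and at 16, 14.9 and 14.6 CPM in KD. In OE it stood at 11.4, 10.3 and 11.5 CPM, below all other libraries. The log2 fold change was 0.04 (SE 0.0874) in KD and -0.42 (SE 0.0947) in OE against WT. The differences of Fgfr2 and Fgfrl1 in OE were thus of similar size, and both far smaller than that of Fgfr1. Of the 2 nearest tested genes on each side of Fgfrl1, Idua fell in OE from 3.34 ± 0.316 to 1.54 ± 0.25 CPM. Its log2 fold change was -1.11 (adjusted p = 3.60e-05, edgeR's quasi-likelihood test), and 0.01 in KD. Slc26a1, Gm42627 and Gm5871 did not pass the threshold in either. The window centred on 0.01 in OE against WT (median, log2 scale).

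Per kilobase of exon, the balance of the 3 kinase receptors differed between groups. The length used is that of all annotated exons of a gene merged, not of the transcripts expressed. Shares and orders between genes depend on that choice. In WT, Fgfr1 made up 15.5% ± 2.57 (SD, n = 3) of their summed CPM per kb, Fgfr2 59.8% ± 0.866 and Fgfr3 24.7% ± 2.08. In KD the share of Fgfr1 was 5.69% ± 0.892 and that of Fgfr2 66.3% ± 2.54. In OE Fgfr1 held 49.2% ± 0.256, Fgfr2 33.8% ± 0.250 and Fgfr3 17% ± 0.373. Fgfr1 was the scarcest of the 3 in WT and the most abundant in OE, and its share did not overlap between any 2 groups. The summed level was 8.21 ± 0.302 CPM per kb in WT, 7.58 ± 0.202 in KD and 10.4 ± 0.407 in OE. Because the share of Fgfr2 rests partly on bases it has in common with Ctbp2, Fgfr1 was also set against Fgfr3 alone, where it held 38.5% ± 5.80 in WT, 16.8% ± 1.77 in KD and 74.4% ± 0.496 in OE.

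**Figure D2:**
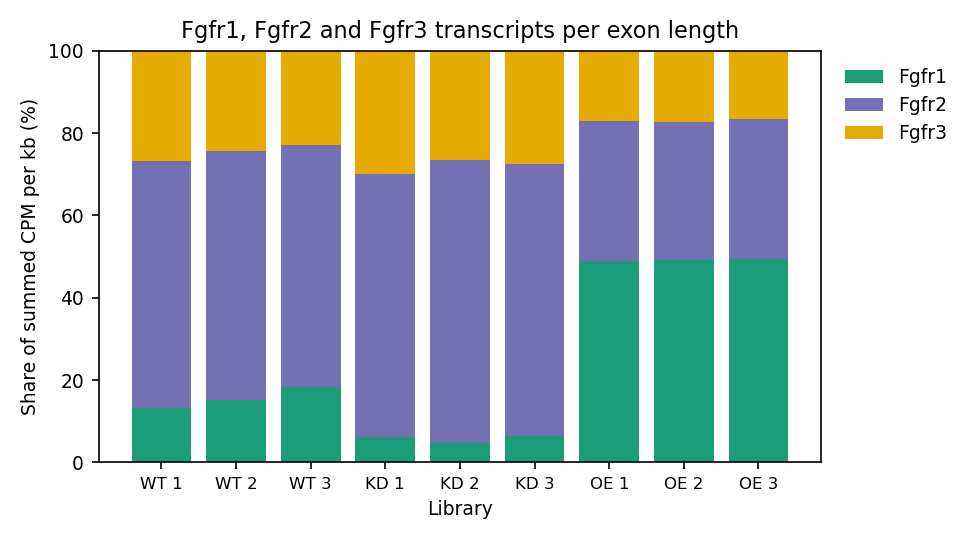
Share of each kinase receptor (vertical axis, percent) in the summed CPM per kilobase of exon of Fgfr1, Fgfr2 and Fgfr3, in each of the 9 libraries (horizontal axis). Fgfr1 fills 13.2% to 18.2% of a WT library, 4.66% to 6.30% of a KD library and 49.0% to 49.5% of an OE library.

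The ligands among the 10 genes were low. Fgf2 (ENSMUSG00000037225, chromosome 3, 37348346 to 37410108, plus strand), a ligand without a secretion signal that is known as an endothelial mitogen, had 6.96, 8.22 and 4.88 CPM in WT, 6.54, 7.48 and 8.01 in KD and 7.57, 6.30 and 6.98 in OE. The groups overlapped in every comparison, and the log2 fold changes were 0.13 (SE 0.237) in KD and 0.05 (SE 0.233) in OE against WT. Fgf2 shares 640 of its 6782 exon bases with Nudt6 on the opposite strand, which was at 1.32 ± 0.198 CPM in WT. Whether the counting used strand is not given in the sources used here.

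Fgf10, a ligand that signals mainly through the IIIb form of FGFR2, had 6, 16 and 4 counts in WT, 1, 8 and 9 in KD and 0 in each OE library. Taking 3 counts per library as the limit that a count of 0 allows, the WT mean was 2.70-fold and the KD mean 2.12-fold above the OE limit. These ratios cover the counting error of the OE libraries only. The error of the WT and KD means is left out, and KD replicate 1, with 1 count, was itself below 3 counts. The window of Fgf10 on chromosome 13 centred on -0.26 (median, log2 scale) in OE against WT, over 97 other genes. Fgf7, another ligand of that receptor form, had 2 to 10 counts per library in all groups, and Fgf1, a ligand of all FGF receptors, had at most 3. These 3 ligands did not pass the filter on low counts, so 7 of the 10 genes entered the fit. No difference in Fgf1 or Fgf7 was detectable at this depth.

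Of the 7 fitted genes, 1 passed an adjusted p of 0.05 in KD against WT (Fgfr1, lower), where 21.3% of all 16955 tested genes passed and 10.4% were lower. In OE against WT 5 passed, 3 higher (Fgfbp3, Fgfr1, Fgfbp1) and 2 lower (Fgfr2, Fgfrl1), where 36.4% of all genes passed, 17.0% higher and 19.5% lower. In OE against KD 5 passed, Fgfbp3 and Fgfr1 higher and Fgfr2, Fgfr3 and Fgfrl1 lower, where 41.5% of all genes passed, 19.4% higher and 22.1% lower. Groups that did not overlap were found for 34.7%, 45.1% and 55.4% of all tested genes in these comparisons. Since the genes were chosen with such results in view, nothing is read from these counts.

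**Figure D3:**
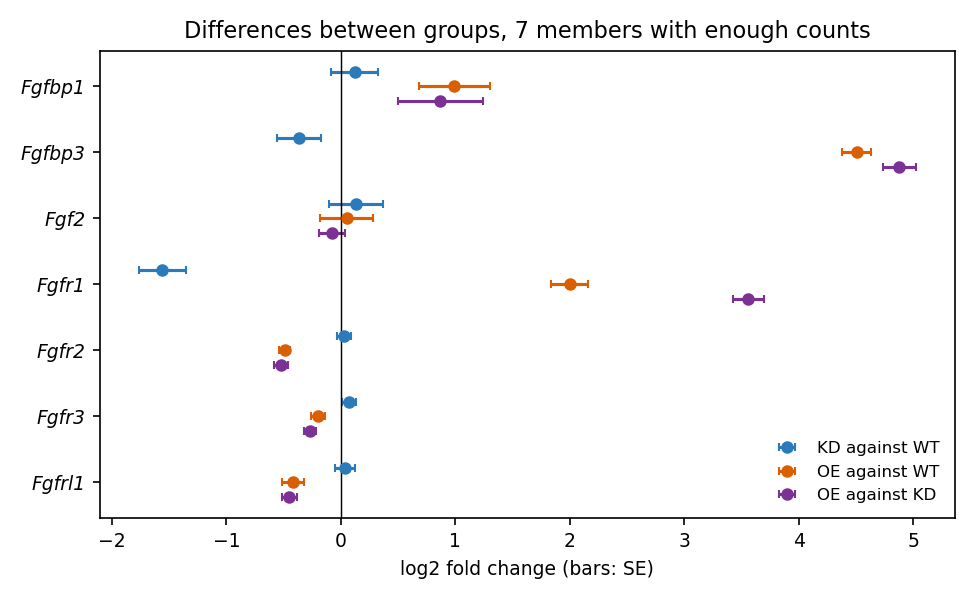
Log2 fold change (horizontal axis) of the 7 fitted genes in the 3 comparisons; bars are standard errors from the spread of log2 CPM between libraries. Fgfbp3 and Fgfr1 lie furthest from 0 in OE, Fgfr1 alone lies far below 0 in KD, and Fgf2 lies near 0 throughout.

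Levels of different genes were compared per kilobase of exon, with the same merged exon lengths. In WT the order was Fgfrl1 at 5.32 ± 0.514 CPM per kb (SD, n = 3), Fgfr2 at 4.91 ± 0.201, Fgfr3 at 2.02 ± 0.111, Fgfr1 at 1.28 ± 0.242, Fgf2 at 0.986 ± 0.249, Fgfbp3 at 0.898 ± 0.141 and Fgfbp1 at 0.187 ± 0.0101, with Fgf7, Fgf10 and Fgf1 below 0.06. Fgfrl1 and Fgfr2 did not differ beyond their spread (means ± SD overlapped), nor did Fgf2 differ so from Fgfr1 or Fgfbp3. In KD the order was Fgfrl1 at 5.45 ± 0.256 CPM per kb, Fgfr2 at 5.02 ± 0.294, Fgfr3 at 2.12 ± 0.0971, Fgf2 at 1.08 ± 0.110, Fgfbp3 at 0.694 ± 0.121, Fgfr1 at 0.431 ± 0.0675 and Fgfbp1 at 0.205 ± 0.0557. Here only the first pair overlapped within its SDs. Fgfr1 thus ranked behind Fgf2 and Fgfbp3 in KD. In OE Fgfbp3 came first at 20.3 ± 0.396 CPM per kb, before Fgfr1 at 5.11 ± 0.179, Fgfrl1 at 3.98 ± 0.250, Fgfr2 at 3.51 ± 0.153, Fgfr3 at 1.76 ± 0.0851, Fgf2 at 1.02 ± 0.0934 and Fgfbp1 at 0.373 ± 0.135, with no neighbours overlapping within their SDs.

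The genes whose levels followed those of a member most closely were sought among 9969 named genes with at least 5 CPM in a group, by Pearson correlation of log2 CPM over the 9 libraries. The 9 points are 3 groups of 3, so that any gene apart in the same group scores high, and the values only describe. The correlation also takes no account of the size of a change. Closest to Fgfbp3 were Zbtb46 itself (r = 0.997), Wdr74 (0.997) and Insig1 (0.996). Wdr74 differed far less than Fgfbp3, with means of 70.3 CPM in WT, 67.7 in KD and 110.4 in OE. Closest to Fgfr1 were Kdm4b, Hpse and Txlna (each 0.995). Kdm4b differed far less than Fgfr1, with means of 51.3 CPM in WT, 44.6 in KD and 63.1 in OE. Fgfr2 was followed by Slc35d2 (0.990), Ghr (0.989) and Cd9 (0.986), Fgfr3 by Pmm2 (0.985), Ankra2 (0.968) and Isca1 (0.963), and Fgfrl1 by Nptxr (0.989), Map2k5 (0.985) and Sh3bp4 (0.981). For Fgf2, which varied mainly among WT libraries, they were Matr3 (0.959), Ing3 (0.950) and Cbwd1 (0.937).

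The rest of the FGF system was described from 6 lists with 111 genes, of which 87 were tested. In KD against WT 18 rose and 19 fell, and in OE against WT 20 rose and 28 fell, by edgeR's quasi-likelihood test. Every adjusted p here comes from that test, adjusted after Benjamini and Hochberg over all tested genes. Of these genes 21.3% passed in KD and 36.4% in OE. By direction, 1859 of the 16955 rose and 1758 fell in KD against WT, and 2874 rose and 3300 fell in OE against WT. The median log2 fold change over all tested genes was -0.002 in KD and 0.002 in OE against WT.

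Of 18 other FGF ligands, 5 had enough counts to be tested. Fgf18, which signals mainly through FGFR3, and Fgf5 were the ligands with the highest levels, at 34.7 ± 2.38 and 14 ± 0.632 CPM per kb in WT (SD, n = 3), well above Fgf2. Fgf18 fell in OE from 41.2 ± 2.83 to 25.7 ± 1.47 CPM (log2 fold change -0.68, adjusted p = 2.97e-08), and Fgf21, an endocrine ligand, rose from 2.16 ± 0.188 to 5.82 ± 0.971 CPM (1.42, adjusted p = 1.00e-06). Klb, which encodes the co-receptor that FGF21 requires, had at most 8 counts in any library. In KD only Fgf11, an intracellular FGF homologous factor, passed, falling from 4.73 ± 0.188 to 2.51 ± 0.367 CPM (-0.91, adjusted p = 1.98e-04). Fgf5 had a log2 fold change of 0.15 in KD (adjusted p = 0.0571) and passed with DESeq2 (0.16, adjusted p = 0.0458) and without WT replicate 2 (0.19, adjusted p = 0.0155), each of which made 2 genes of the list. Without the filter on low counts 4 ligands passed in OE. Median log2 fold changes of the list were 0.0211 in KD and -0.234 in OE. Among ligands too low to test, Fgf8 had 8, 21 and 6 counts in WT, 6, 2 and 2 in KD and 0 in each OE library, and Fgf23 had 4, 6 and 9 counts in WT and 0 in every KD and OE library; these 2 were named after their values were seen.

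Among 10 other receptors and co-receptors, 6 were tested; 2 rose and 0 fell in KD, and 0 rose and 4 fell in OE, with medians of 0.141 and -0.379 on the log2 scale. Flrt3, a membrane protein that can bind FGF receptors, stood at 19.4, 25.6 and 21.9 CPM in WT, 35.5, 39.4 and 38.0 in KD and 8.82, 11.1 and 10.4 in OE. It rose in KD (log2 fold change 0.75, adjusted p = 1.04e-05) and fell in OE (-1.15, adjusted p = 3.35e-08). Ncam1, an adhesion molecule also known to bind FGFR1, went the same ways, from 191 ± 5.61 CPM in WT to 235 ± 7.95 in KD (0.30, adjusted p = 2.37e-05) and 116 ± 1.81 in OE (-0.71, adjusted p = 2.37e-11). Fgfr4, the remaining kinase receptor, had at most 6 counts in any library. Without WT replicate 2, 4 genes of the list passed in KD.

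Of the 32 genes for heparan sulfate carriers and enzymes, 26 were tested. In KD 6 rose and 8 fell, and in OE 5 rose and 15 fell, with medians of -0.120 and -0.198 on the log2 scale. The 2 extracellular sulfatases, which remove the 6-O-sulfates that FGF and its receptors use for binding, differed in opposite directions. Sulf2 was at 1.58, 2.18 and 2.22 CPM in WT, 0.0993, 0.176 and 0.0819 CPM in KD and 9.63, 9.79 and 9.69 CPM in OE. Its log2 fold change was -4.09 in KD (adjusted p = 9.43e-10), on 4 to 7 counts per KD library, and 2.27 in OE (adjusted p = 3.38e-10). Sulf1, far more abundant, rose from 116 ± 10.0 CPM in WT to 150.1 ± 5.75 in KD (0.37, adjusted p = 4.00e-05) and fell to 41.9 ± 0.922 in OE (-1.47, adjusted p = 2.71e-14).

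Hpse, the heparanase that cleaves the chains, was at 4.72, 5.31 and 4.90 CPM in WT, 2.84, 2.29 and 2.70 in KD and 11.2, 10.4 and 11.3 in OE. It fell in KD (-0.93, adjusted p = 2.25e-05) and rose in OE (1.14, adjusted p = 1.21e-07), the same directions as Fgfr1. The membrane-anchored carriers Gpc3 and Gpc4 fell in OE, from 88.5 ± 3.37 to 36.7 ± 0.823 CPM (-1.27, adjusted p = 2.76e-14) and from 35.2 ± 0.833 to 14.1 ± 1.13 CPM (-1.31, adjusted p = 3.63e-12). In KD Gpc3 fell (-0.30, adjusted p = 8.34e-05) and Gpc4 rose (0.22, adjusted p = 0.0172). Agrn, a matrix carrier, fell in KD (-0.40, adjusted p = 1.01e-05) and rose in OE (0.30, adjusted p = 9.95e-05).

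All 7 genes for export and trafficking of FGFs were tested; 2 rose and 1 fell in KD, and 1 rose and 2 fell in OE, with medians of 0.0219 and -0.0269 on the log2 scale. Anxa2, an annexin of the inner membrane face, rose from 786 ± 31.7 to 981 ± 27.9 CPM in KD (0.32, adjusted p = 1.03e-05) and fell to 534 ± 19.7 in OE (-0.56, adjusted p = 1.04e-09). Syt1, a calcium sensor of vesicle release linked to the export of FGF1, fell in KD (-0.93, adjusted p = 0.0188) and rose in OE (0.73, adjusted p = 0.0256). The KD call of Syt1 was lost without KD replicate 2 (adjusted p = 0.0899) or KD replicate 3 (adjusted p = 0.104), and without either of these 1 gene of the list passed in KD.

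All 22 adaptors and kinases between receptor and MAP kinase were tested. In KD 7 rose and 2 fell, with log2 fold changes from -0.194 to 0.272 and a median of 0.0933. In OE 3 rose and 4 fell, from -0.614 to 0.265, with a median of -0.0231. Map2k1, the kinase MEK1, rose in KD (0.27, adjusted p = 6.60e-05). Gab1, a docking protein, fell in OE from 92.0 ± 6.13 to 60.1 ± 3.49 CPM (-0.61, adjusted p = 1.43e-08), and Mapk3, the kinase ERK1, fell in OE (-0.36, adjusted p = 3.51e-07) and in KD (-0.19, adjusted p = 0.00132). The KD count of this list was 14 without WT replicate 2 and 3 with library totals in place of TMM.

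Of 22 feedback inhibitors and targets of the cascade, 21 were tested. In KD 1 rose and 7 fell, with a median log2 fold change of -0.222, and in OE 10 rose and 2 fell, with a median of 0.185. Etv4, an ETS factor induced by FGF signalling in many tissues, was at 5.88, 4.10 and 4.09 CPM in WT, 1.99, 2.29 and 2.05 in KD and 8.74, 9.33 and 9.38 in OE. It fell in KD (-1.15, adjusted p = 1.85e-05) and rose in OE (0.97, adjusted p = 1.15e-05), with no overlap between groups. Fosl1, a subunit of the factor AP-1, rose in OE from 2.24 ± 0.175 to 6.37 ± 0.248 CPM (1.51, adjusted p = 1.84e-07) and fell in KD (-0.55, adjusted p = 0.0303). Spsb1, which encodes a SPRY domain protein, fell in KD (-0.46, adjusted p = 1.72e-05) and rose in OE (0.23, adjusted p = 0.00501). Il17rd, also called Sef, an inhibitor of FGF signalling, followed the same directions (-0.51, adjusted p = 0.00361, and 0.57, adjusted p = 4.32e-04), as did Spred2, an inhibitor of the cascade (-0.22, adjusted p = 0.0035, and 0.20, adjusted p = 0.00383).

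These 5 were the genes of the list that fell in KD and rose in OE, and 0 did the reverse. In the heparan sulfate list 3 fell in KD and rose in OE, and 5 did the reverse. Among other receptors and co-receptors the counts were 0 and 2, and for export and trafficking 1 and 1. The other FGF ligands and the adaptors and kinases had 0 of either kind. The share of all tested genes with this joint pattern was not determined. Il17rd and Spred2 were named after their values were seen. Ccnd1, the cyclin D1 gene, rose in OE from 13.3 ± 0.532 to 20.6 ± 0.196 CPM (0.64, adjusted p = 6.99e-07) and had a log2 fold change of 0.07 in KD (adjusted p = 0.592). Egr1, an immediate early gene, fell in KD from 41.6 ± 8.37 to 16 ± 1.28 CPM (-1.38, adjusted p = 0.006) and was at 31.3 ± 8.49 CPM in OE (-0.41, adjusted p = 0.208). The list did not move as a block: Dusp6, the ERK phosphatase, rose in OE (0.45, adjusted p = 0.00628), whereas Spry1 fell (-0.61, adjusted p = 4.07e-04) and Phlda1 fell (-0.69, adjusted p = 7.57e-06), all 3 named after their values were seen. The WT libraries enter both comparisons, and no p-value is attached to the pattern of the list.

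**Figure D4:**
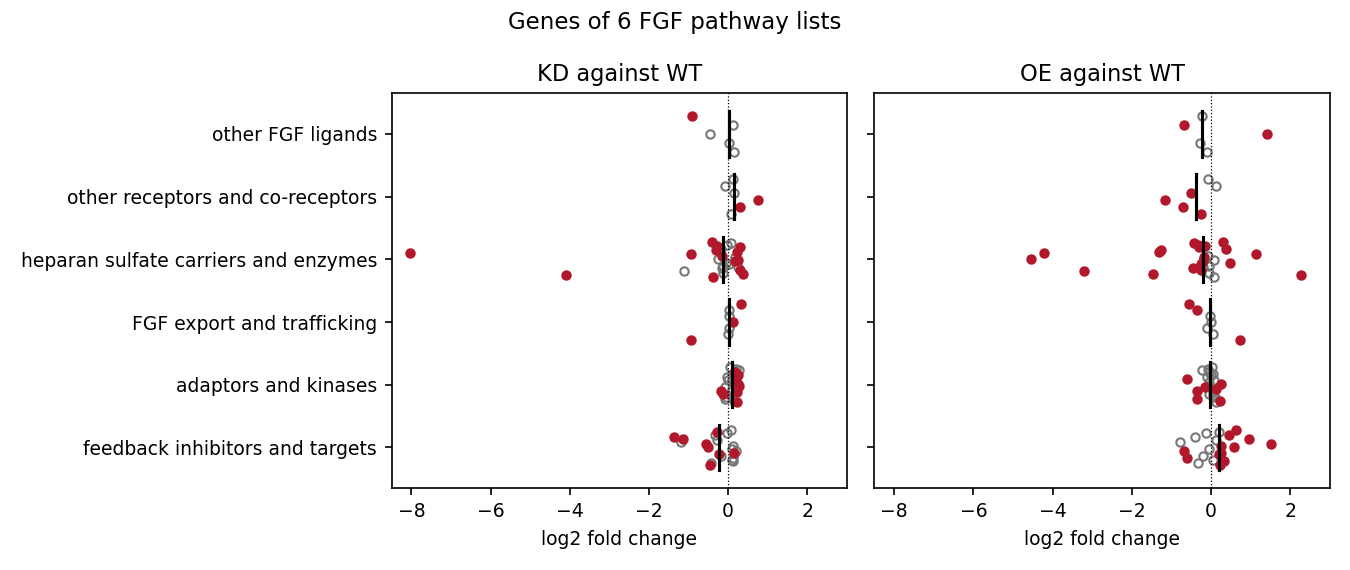
Log2 fold changes (horizontal axes) of the 87 tested genes of the 6 lists (rows) in KD and in OE against WT; filled points passed an adjusted p of 0.05, open points did not, and black bars are list medians. Adaptors and kinases lie between -0.614 and 0.272 in both panels, and the heparan sulfate list holds the widest spread; its leftmost point in KD is Gpc6, which had 0 counts there, so that the size of its fitted change has no meaning.

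**Figure D5:**
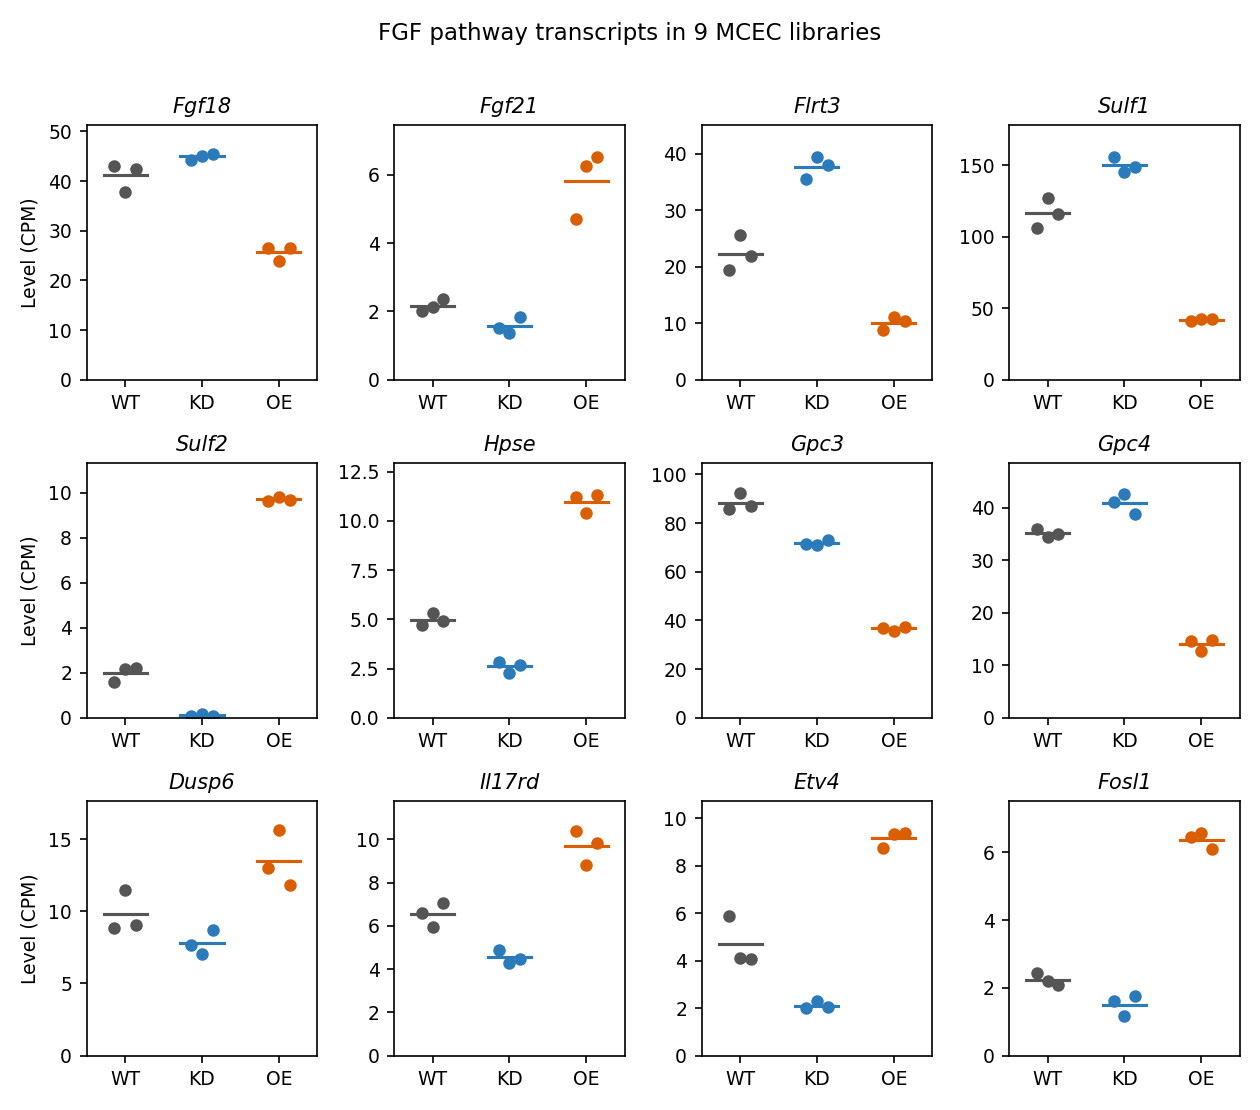
Levels of 12 genes of the lists in CPM (vertical axes, each starting at 0) by group; points are single libraries in the order of their replicate number and horizontal lines are group means of 3. Sulf2, Hpse, Il17rd, Etv4, Fosl1, Fgf21 and Dusp6 are lowest in KD and highest in OE. Sulf1, Flrt3, Gpc4 and Fgf18 are highest in KD and lowest in OE. For Fgf21, Dusp6 and Fgf18 the difference between KD and WT did not pass the threshold.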

How the data were processed

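The authors deposited raw counts per Ensembl gene for 9 libraries, judged from the values and column names. Per the submitters' processing notes the build was GRCm38 (mm10); the aligner, counting program, strand setting and annotation release are not given in the sources used here. The table's 55774 rows held 55487 genes, 168 of them on repeated rows with identical counts, which were counted once. Positions, exon lengths and overlaps came from GENCODE M21 by Ensembl identifier (55141 genes matched), and promoter sequences from RefSeq by symbol.

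Genes kept by filterByExpr (16955) were scaled with TMM and fitted in 1 edgeR quasi-likelihood model over all libraries with 1 term, the group, and adjusted after Benjamini and Hochberg. Standard errors were derived from each group's SD of log2 CPM, computed with a prior count of 2. Tools were R 4.3.3, edgeR 4.0.16, limma 3.58.1, DESeq2 1.42.0, Python 3.11.15 and matplotlib 3.10.9. The procedure was tested on simulated data.

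The members were chosen with earlier results of these data known. The lists were written with those results known too, but from general knowledge of FGF signalling and not from how their genes moved. Adjusted p-values of list genes make no allowance for that. Named pathway genes were, per list and comparison with WT, the 2 with the smallest p and those changed at least 2-fold with at least 1 CPM in a group. Some genes that this rule names are not reported here. Totals of 39491828 to 55745849 counts per library set the precision, and the limit taken for a count of 0 is 3 counts. Alternatives were other scalings, filters and tests, fits of only the groups compared, a replicate block, each library left out, and medians of 20 Mb windows removed.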

Additional observations from a re-analysis of the deposited data

How the results depend on the processing

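Calls were made over all 16955 tested genes. Leaving out 1 library at a time gave 2551 to 4719 genes called in KD against WT, 5223 to 6445 in OE against WT and 6115 to 7605 in OE against KD. Of the FGF genes under study 1 to 2, 4 to 5 and 4 to 6 passed in these fits, and of the pathway genes 29 to 48, 42 to 49 and 55 to 58. The second gene in KD was Fgfbp3, which passed without WT replicate 2 at a log2 fold change of -0.49. Fgfr1 passed in all 18 alternatives of each comparison, and Fgfbp3, Fgfr2 and Fgfrl1 passed in all 18 of both comparisons with OE; none of these changed sign. With library totals in place of TMM the share of higher genes among calls was 35.8% in place of 51.4% in KD against WT and 31.6% in place of 46.6% in OE against WT, and Fgfr2 stood at -0.55 in OE. Deviations from the group mean correlated at -0.0421 to 0.049 between libraries with the same replicate number and at -0.061 to 0.0417 between those with different numbers. The labels do not say whether equal numbers share a culture or batch, and the main fit used no pairing. With the replicate number as a block 3574, 6111 and 6969 genes were called in KD against WT, OE against WT and OE against KD, and 1, 4 and 5 of the FGF genes, Fgfbp1 being lost in OE. Genes with few counts, such as Fgf1, Fgf7 and Fgfbp1, are limited by depth.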
